A study of Homo sapiens with 4 samples.

Results

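The kinesin family is the set of 42 protein-coding genes whose name in the files' gene annotation begins with KIF and a digit, or with KIFC, among 57820 gene rows of which 19404 were protein-coding. The adaptor gene KIFAP3 does not belong to it. For description the members were sorted by textbook function into 14 mitotic kinesins, 17 kinesins of intracellular transport and 11 others. RNA was sequenced from SY5Y cells, a neuroblastoma cell line of MYCN wild type genotype, 12 h after the cells were given SGSS05-NS or the solvent DMSO alone. That is the compound's name in the labels; the study's methods name SGSS05-NS3, which it describes as a covalent inhibitor of the histone lysine methyltransferase SETD8, and SGSS05-NS is also a name it gives within a series of related inhibitors. Each condition had 2 libraries, which the study's methods call independent biological replicates. The sample labels give a dose of 3 µM, and so do the study's figure legends for SY5Y expression profiles, where its methods give a lower dose. Both conditions share the cell line and the genotype, and all results hold for this 1 line only.

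Kinesins are motor proteins that use ATP to move along microtubules or to take microtubules apart. One set of them works in cell division: they push the spindle poles apart, move and align chromosomes, bundle the midzone between the separating chromosomes and help to split the cell. These genes are transcribed mostly in cells that pass from DNA replication into mitosis. Another set carries vesicles, mitochondria, endosomes and receptors, above all along axons and dendrites, and neuroblastoma cells, which descend from the sympathetic nervous lineage, use both sets.

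The 4 libraries held between 21463105 and 25350204 fragments in genes, and kinesin genes took 0.435% and 0.431% of them under DMSO and 0.367% and 0.308% under SGSS05-NS. Fragments outside annotated exons were 12.4% and 12.3% of the DMSO libraries and 16.1% and 15.3% of the SGSS05-NS libraries, and their part in the results was not tested. Of 14 matched markers of neuroblastoma 13 could be tested, and 9 of those fell at an adjusted p under 0.001 (11 fell and NEFM rose at 0.05, edgeR test), with a summed level of 5147 to 5554 CPM (counts relative to a library size adjusted by the TMM method) in DMSO and 3139 to 3216 CPM in SGSS05-NS. Of all tested genes 8.14% were lower at an adjusted p under 0.001 by the same edgeR test, and 23.7% were lower and 22.6% higher at 0.05. TH, the first enzyme of catecholamine synthesis and a defining marker of this lineage, had at most 2 fragments in any library. Markers of other cell types summed to 5.61 to 6.90 CPM in DMSO and 7.23 to 7.98 CPM in SGSS05-NS, none of the 4 tested passed an adjusted p of 0.001 while the epithelial marker EPCAM was higher at 0.05 (log2 fold change 0.97, adjusted p = 0.0117 by the edgeR test), and CD3E and KRT5 had no fragment in any library.

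Of the 42 kinesin genes 38 had enough counts to be tested. At an adjusted p under 0.001 (edgeR quasi-likelihood test, Benjamini-Hochberg adjustment over 16468 genes), 7 kinesin genes were lower after SGSS05-NS and 1, KIF1C, was higher. The 7 were KIF26B, KIF16B, KIF13A, KIF21A, KIF13B, KIF4A and KIF11, or 18.4% of those tested, where 8.14% of all tested genes were lower and 6.37% higher by the same test. At an adjusted p under 0.05, 19 kinesin genes (50% of those tested) were lower and 4 higher, beside 23.7% and 22.6% of all tested genes. The median log2 fold change of the family was -0.38, and that of all tested genes was 0.01. The mitotic and transport classes differed in pattern. All 13 tested mitotic genes had a negative fold change, and they lay between -2.17 and -0.07 with a median of -0.54. The 17 transport genes spread to both sides, from -1.22 to 1.20, with a median of -0.20.

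**Figure D1:**
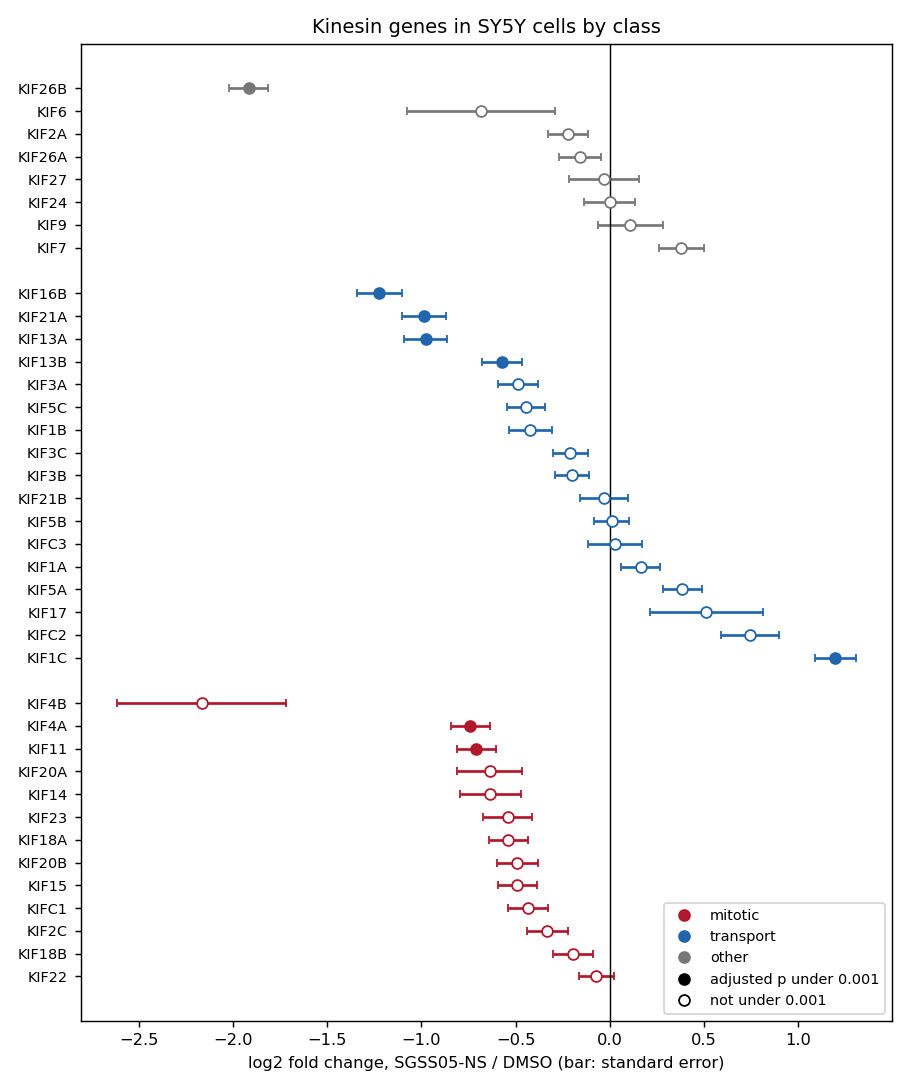
Log2 fold change of SGSS05-NS over DMSO (horizontal axis) for the 38 tested kinesin genes, ordered within the mitotic, transport and other classes, with bars of 1 standard error from the fit over 2 libraries per group. Filled points passed an adjusted p under 0.001: KIF4A and KIF11 among the mitotic genes, KIF16B, KIF21A, KIF13A, KIF13B and, on the higher side, KIF1C among the transport genes, and KIF26B among the others.

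Among the mitotic kinesins 2 of 13 were lower at an adjusted p under 0.001 and 11 (84.6%) at 0.05, and none was higher at either threshold. Over all alternative settings, leaving out a library included, 9 (DESeq2) to 12 (without the first SGSS05-NS library) were lower at 0.05. In 12 of the 13 (92.3%) both SGSS05-NS libraries lay below both DMSO libraries, which was so for 36.9% of all tested genes. The genes that passed the stricter threshold were KIF11 and KIF4A. In bulk RNA, fewer cells in mitosis and less RNA of these genes in each cell cannot be told apart.

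KIF11 encodes the tetrameric motor Eg5, which slides antiparallel microtubules and separates the spindle poles. The gene (ENSG00000138160) lies on the forward strand of chromosome 10 (GRCh37, 94333862 to 94415152). Its level was 249 and 248 CPM in the DMSO libraries and 164 and 139 CPM in the SGSS05-NS libraries. The groups did not overlap, and the log2 fold change was -0.71 ± 0.10 (SE, n = 2 per group, adjusted p = 0.000182 by edgeR's quasi-likelihood test).

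KIF4A encodes a chromokinesin, a motor carried on chromosome arms that also limits microtubule growth in the midzone, and lies on the X chromosome (GRCh37, 69509954 to 69640736, forward strand). It had 157 and 154 CPM with DMSO and 101 and 84.5 CPM with SGSS05-NS, so that both treated libraries lay under both controls. Its log2 fold change was -0.74 ± 0.10 (SE, n = 2 per group, adjusted p = 0.000158 by the same edgeR test). KIF4B, an intronless copy of KIF4A, had 22 and 17 fragments under DMSO and 4 and 4 under SGSS05-NS. Its fitted log2 fold change of -2.17 ± 0.45 (SE, adjusted p = 0.0021 by the edgeR test) was the lowest of the family, from the fewest counts of the mitotic genes tested. Fragments that map equally to both copies were not assigned to either, so the values of KIF4A and KIF4B are uncertain to that extent.

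KIF18A, which dampens chromosome movements at the spindle equator, had 56.7 and 53.2 CPM with DMSO and 40.4 and 35.3 CPM with SGSS05-NS. Its log2 fold change of -0.54 ± 0.10 (SE) missed the stricter threshold (adjusted p = 0.0013, edgeR quasi-likelihood test). KIF15, a motor that can keep spindles bipolar beside Eg5, went from 102 and 88.9 CPM to 70.8 and 65.3 CPM, with a log2 fold change of -0.49 ± 0.10 (SE, adjusted p = 0.0021 by the edgeR test). Neither gene had groups that overlapped.

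The kinesins of the midzone and of cytokinesis gave similar values with more spread between the treated libraries. KIF20A, which brings the chromosomal passenger complex to the midzone, had 156 and 129 CPM in DMSO and 112 and 70.9 CPM in SGSS05-NS (log2 fold change -0.64 ± 0.17 SE, adjusted p = 0.0092 by the edgeR test). KIF14, a partner of citron kinase at the midbody, had 124 and 108 CPM in DMSO and 91.4 and 58.8 CPM in SGSS05-NS (log2 fold change -0.63 ± 0.16 SE, adjusted p = 0.0072). In both genes the second SGSS05-NS library lay well below the first, and without it the log2 fold changes were -0.34 and -0.35. DESeq2 gave adjusted p of 0.146 for KIF20A and 0.117 for KIF14. KIF23, the motor subunit of centralspindlin, had a log2 fold change of -0.54 (adjusted p = 0.0052), and KIF20B, another cytokinesis motor, one of -0.49 (adjusted p = 0.0033).

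The remaining mitotic members had smaller differences. KIFC1, a motor that walks to microtubule minus ends and focuses spindle poles, had a log2 fold change of -0.43 (adjusted p = 0.0053 by the edgeR test), and KIF2C, the microtubule depolymerase of centromeres, one of -0.33 (adjusted p = 0.023). KIF2C did not pass 0.05 with library size only (adjusted p = 0.0611) or without the first DMSO library (0.0865) or the second SGSS05-NS library (0.155). KIF18B gave -0.20 (adjusted p = 0.156) and the chromokinesin KIF22 -0.07 (adjusted p = 0.561). KIF22 was the mitotic gene whose groups overlapped, with 129 and 117 CPM in DMSO and 116 and 118 CPM in SGSS05-NS. KIF2B had no fragment in any library.

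The size of the mitotic difference varied between the treated libraries. Against the mean of the DMSO libraries, the median log2 ratio of the 13 genes was -0.35 in the first SGSS05-NS library and -0.64 in the second, and all 13 were negative in each. The second library lay below the first for 12 of 13 mitotic genes and for 15 of 17 transport genes. Without the second SGSS05-NS library the median of the mitotic genes was -0.35 and that of the transport genes -0.14. Without the first, 9 mitotic genes and 16 kinesin genes in all were lower at an adjusted p under 0.001. Without the second DMSO library the counts were 7 and 12, and without the first DMSO library 4 mitotic genes were lower.

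Promoters of the mitotic members were compared with those of the other kinesins, since genes of late cell cycle are known to share a short element, the cell cycle genes homology region (CHR), near their start, often downstream of CCAAT boxes. RefSeq promoter windows on GRCh38.p14, from 250 bases before to 50 after the start, were at hand for 34 of the 42 members. The stretches shown here are the 100 bases before the start of 4 of the mitotic genes and, for contrast, of the transport genes KIF1C and KIF16B, which moved furthest up and down in their class. They are written 5′ to 3′ on the gene's strand, and capitals mark every match, on either strand, to the CHR letters TTTGAA, their variant TTTAAA or the box CCAAT, none of which contains another. They come from chr10:92593030-92593129 (forward strand) for KIF11, chrX:70290004-70290103 (forward) for KIF4A, chr11:28108157-28108256 (reverse) for KIF18A, chr5:138179012-138179111 (forward) for KIF20A, chr17:4997850-4997949 (forward) for KIF1C and chr20:16573449-16573548 (reverse) for KIF16B.
KIF11: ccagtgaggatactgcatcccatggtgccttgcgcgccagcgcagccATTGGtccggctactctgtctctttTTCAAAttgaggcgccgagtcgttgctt
KIF4A: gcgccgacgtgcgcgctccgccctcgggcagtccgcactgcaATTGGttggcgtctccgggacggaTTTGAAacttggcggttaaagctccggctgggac
KIF18A: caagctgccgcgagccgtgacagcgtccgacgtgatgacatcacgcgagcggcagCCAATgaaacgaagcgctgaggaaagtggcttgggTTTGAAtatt
KIF20A: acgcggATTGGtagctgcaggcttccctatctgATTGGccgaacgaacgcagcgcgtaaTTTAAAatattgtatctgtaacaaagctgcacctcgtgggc
KIF1C: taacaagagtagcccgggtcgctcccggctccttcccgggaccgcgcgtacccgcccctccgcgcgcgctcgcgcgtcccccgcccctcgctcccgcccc
KIF16B: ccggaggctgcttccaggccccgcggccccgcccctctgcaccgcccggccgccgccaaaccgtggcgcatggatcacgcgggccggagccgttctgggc

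In KIF11, KIF4A and KIF18A the stretch held a CCAAT box and, closer to the start, a CHR match that began at position -28, -34 and -10 from the start. KIF20A held 2 CCAAT boxes and the TTTAAA variant at position -41, and the stretches of KIF1C and KIF16B held no match. The 4 mitotic stretches do not stand for the whole class. In KIF14, KIF18B, KIF20B, KIF4B and KIFC1 the TTTGAA match began after the start, and KIF15, KIF2C and KIF2B had no CCAAT box in the window. Within 50 bases to either side of the start, TTTGAA was present in 9 of 14 mitotic genes (64.3%), in 0 of 12 transport genes and 0 of 8 others, and in 5.77% of the 27305 genes in the table. Over the whole window it was present in 10 of 14 mitotic genes (71.4%), in 1 transport gene, KIF5B, and in 18.2% of all genes. TTTAAA stood near the start of 2 mitotic genes (14.3%), KIF20A and KIF2C, and of 4.19% of all genes. CCAAT was present in the window of 11 mitotic genes (78.6%), 4 transport genes (33.3%) and 3 others (37.5%), beside 39.7% of all genes. The core TTCCCGC of E2F factors, searched on both strands, was found in 0 mitotic genes, 2 transport genes and 1 other, beside 7.82% of all genes. KIF22, which had the smallest change of the mitotic genes, had no CHR match in either of its windows, and KIF18B, with the next smallest, had 1 at its start. These are matches of letters only, with no measure of binding.

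**Figure D2:**
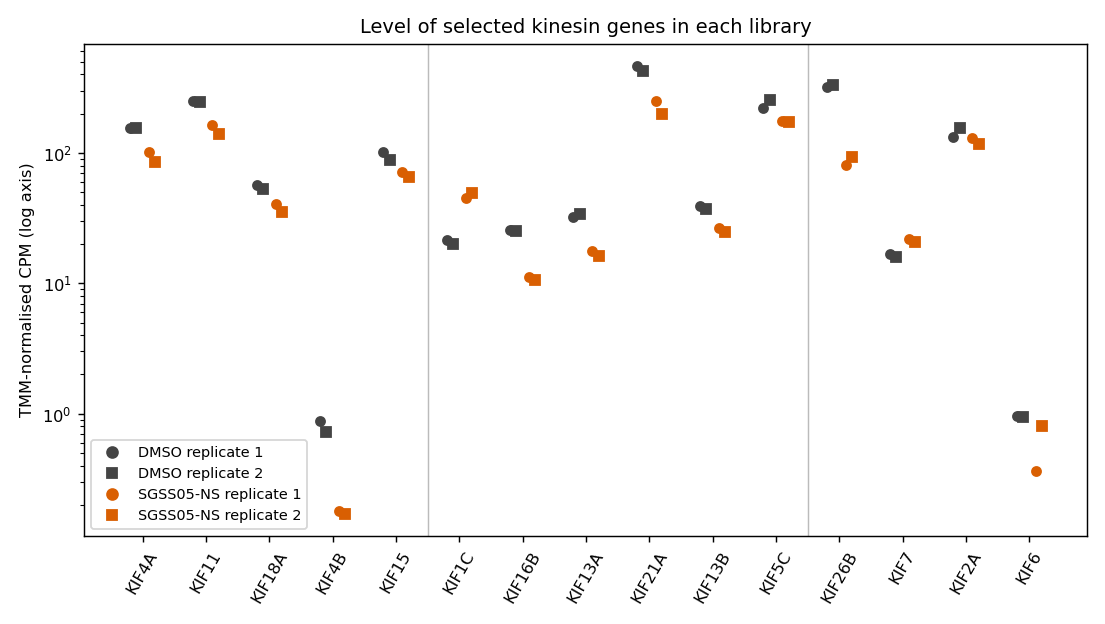
Level in each library (TMM-normalised CPM, log axis) of the 5 mitotic genes with the smallest p (left), the 5 transport genes with the smallest p and KIF5C (middle) and 4 genes of neither class (right). Grey points are DMSO and orange points SGSS05-NS, circles and squares the first and second replicate; the groups do not overlap in any gene shown, and are closest in KIF2A, where the higher treated library (130 CPM) nearly reaches the lower control (132 CPM).

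Transport kinesins moved in both directions: at an adjusted p under 0.001, 4 of 17 were lower and 1 higher, and at 0.05, 7 were lower and 3 higher. KIF1C, a motor of dense-core vesicles and integrins that also works in non-neuronal cells, was the 1 kinesin that passed the stricter threshold on the higher side. The gene lies on chromosome 17 (GRCh37, 4901245 to 4931696, forward strand). It had 21.4 and 19.9 CPM in DMSO and 45.4 and 49.2 CPM in SGSS05-NS, with no overlap. Its log2 fold change was 1.20 ± 0.11 (SE, n = 2 per group, adjusted p = 5.58e-06 by the edgeR test). Its relatives in the kinesin-3 group differed: KIF1A, the main carrier of synaptic vesicle precursors, had a log2 fold change of 0.16 (adjusted p = 0.212), and KIF1B, which carries such precursors and mitochondria, one of -0.42 (adjusted p = 0.0105).

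The endosomal motor KIF16B (GRCh37, chromosome 20, 16252749 to 16554093, reverse strand) fell most among the transport genes. It had 25.8 and 25.1 CPM with DMSO and 11.2 and 10.6 CPM with SGSS05-NS, a log2 fold change of -1.22 ± 0.12 (SE, n = 2 per group, adjusted p = 1.19e-05, edgeR quasi-likelihood test). KIF13A, a motor of recycling endosomes, went from 32.3 and 34.1 CPM to 17.6 and 16.1 CPM (log2 fold change -0.98 ± 0.11 SE, adjusted p = 3.84e-05). KIF13B, its paralog that carries signalling proteins along axons, went from 39.0 and 37.3 CPM to 26.4 and 24.8 CPM (log2 fold change -0.57 ± 0.10 SE, adjusted p = 0.000963). The groups were apart in each of these genes. The call of KIF13B lay close to the threshold and was lost with counts scaled by library size only (adjusted p = 0.00285) and without the first DMSO library (0.00186) or the second SGSS05-NS library (0.0026), and under 3 other settings with adjusted p of 0.00112 to 0.00121.

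KIF21A, which curbs microtubule growth at the cell cortex and is known for mutations in a congenital disorder of eye movement, was among the 3 most abundant kinesins per kb of exon in the controls. It had 461 and 427 CPM in DMSO and 250 and 198 CPM in SGSS05-NS, with no overlap. Its log2 fold change was -0.99 ± 0.12 (SE, n = 2 per group, adjusted p = 4.19e-05 by the edgeR test). Its paralog KIF21B stood at 15.0 and 16.5 CPM in DMSO and 15.7 and 15.1 CPM in SGSS05-NS, with a log2 fold change of -0.03 ± 0.13 (SE).

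The conventional kinesins, the kinesin-1 heavy chains, had 3 different outcomes. KIF5C, the neuronal form (GRCh37, chromosome 2, 149632819 to 149883273, forward strand), had 221 and 257 CPM with DMSO and 177 and 173 CPM with SGSS05-NS. The groups did not overlap, and its log2 fold change of -0.45 ± 0.10 (SE) had an adjusted p of 0.0035 by the edgeR test, short of the stricter threshold. KIF5A, also neuronal and mutated in hereditary spastic paraplegia, was higher at the 0.05 threshold, with 29.3 and 32.2 CPM in DMSO, 41.5 and 38.7 CPM in SGSS05-NS and a log2 fold change of 0.39 ± 0.11 (SE, adjusted p = 0.0106). Without the first DMSO library the log2 fold change of KIF5A was 0.31. KIF5B, the form of all tissues, had 526 and 507 CPM in DMSO and 533 and 507 CPM in SGSS05-NS, with a log2 fold change of 0.01 ± 0.09 (SE).

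Of the heterotrimeric kinesin-2 motors, which serve cilia and axonal transport, KIF3A had a log2 fold change of -0.49 (adjusted p = 0.0029 by the edgeR test), KIF3B one of -0.20 (adjusted p = 0.088) and KIF3C one of -0.21 (adjusted p = 0.0882). KIF17, the homodimeric kinesin-2 of cilia and dendrites, stood at 0.98 to 1.96 CPM and had a log2 fold change of 0.51 ± 0.30 (SE, adjusted p = 0.179). Among the kinesins with a motor at the carboxyl end, KIFC2 was higher at the 0.05 threshold, from 6.14 and 5.91 CPM to 10.2 and 9.95 CPM (log2 fold change 0.74 ± 0.15 SE, adjusted p = 0.0021), and KIFC3 had a log2 fold change of 0.03 ± 0.14 (SE). The 3 transport genes that were higher at 0.05 were thus KIF1C, KIFC2 and KIF5A.

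Of the 11 genes of neither class 8 were tested, and their median log2 fold change was -0.10. KIF26B, a kinesin without motor activity that acts in cell polarity and migration during development, fell most of all kinesins at high counts. The gene lies on chromosome 1 (GRCh37, 245318287 to 245872734, forward strand) and spans 554 kb, the longest of the family. Its level was 321 and 335 CPM in the DMSO libraries and 81.0 and 92.5 CPM in the SGSS05-NS libraries, with no overlap. Its log2 fold change was -1.92 ± 0.10 (SE, n = 2 per group, adjusted p = 1.28e-07 by the edgeR test), which left 26.5% of the control level. Its paralog KIF26A, of 44.4 kb, had 206 and 171 CPM in DMSO and 180 and 158 CPM in SGSS05-NS, with a log2 fold change of -0.16 ± 0.11 (SE, adjusted p = 0.264).

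KIF7, the kinesin of the Hedgehog pathway in cilia, was higher at the 0.05 threshold with 16.8 and 15.9 CPM in DMSO and 22.0 and 20.6 CPM in SGSS05-NS (log2 fold change 0.38 ± 0.12 SE, adjusted p = 0.0213 by the edgeR test). That call was lost with DESeq2 (adjusted p = 0.0629), without strand (0.12) and without the first (0.051) or second (0.137) DMSO library or the first SGSS05-NS library (0.0779). Its exons share 589 bases with TICRR on the opposite strand. KIF2A, a depolymerase of neurites and of the spindle that was kept out of both classes, had 132 and 155 CPM in DMSO and 130 and 116 CPM in SGSS05-NS (log2 fold change -0.22 ± 0.11 SE, adjusted p = 0.107). KIF6 rested on 24 and 22 fragments in DMSO and 8 and 19 in SGSS05-NS, and its log2 fold change of -0.68 ± 0.39 (SE) did not pass (adjusted p = 0.175). KIF9, KIF27 and KIF24, kinesins of cilia and centrioles, had log2 fold changes of 0.11, -0.03 and 0.00.

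The 4 untested members were near or under the limit of detection, where 3 fragments equal 0.120 to 0.135 CPM in a library. KIF12 had 0 and 1 fragments in DMSO and 2 and 1 in SGSS05-NS. KIF19 had 1 and 0 in DMSO and 3 and 4 in SGSS05-NS. KIF25 had 4 and 3 in DMSO and 1 and 4 in SGSS05-NS. For KIF2B, a count of 0 allows up to that limit in each library, for counting error alone.

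Fold changes were then set beside gene span, the distance from start to end of the gene including introns. Over all 12567 protein-coding genes tested, longer genes had lower fold changes, with a Spearman correlation of -0.418 taken across genes; these share the libraries and do not count as independent replicates. The kinesins had a value of -0.413 over 38 genes, or -0.329 over 36 genes without KIF26B and KIF16B. Asking for at least 10 counts in every library, which drops KIF4B and KIF6, gave -0.498 over 36 genes. Summed exon length gave -0.0069 for all 38 genes. By class, the correlation with span was -0.767 over the 17 transport genes, -0.714 over the 8 others and -0.154 over the 13 mitotic genes. With exon length it was -0.218, -0.952 and 0.0549 in the same order, and over all 16042 tested genes with a span the correlation with span was -0.22. The mitotic genes span only 4.39 to 131 kb. Their value includes KIF4B, the shortest of them, whose low fold change rests on few fragments, and it was not taken without KIF4B. The value of -0.154 therefore does not show that the mitotic genes lack the relation to span.

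The classes were also compared within groups of span that were set after the values were seen. Spans were not matched within a group. Under 60 kb the median span was 18.1 kb for mitotic and 47.4 kb for transport genes, and from 60 kb to 131 kb it was 84.4 and 108 kb. Among genes under 60 kb, all 7 mitotic genes had a negative fold change, 5 were lower at an adjusted p under 0.05, and their median was -0.43. Of the 8329 protein-coding genes of that span 12.2% were lower and 30.4% higher at that threshold, and their median was 0.13. The 9 transport genes of that span had a median of 0.01, with 3 higher and 1, KIF3A, lower at 0.05. From 60 kb to 131 kb, the span of KIF4A as the longest mitotic gene, all 6 mitotic genes were lower at 0.05 with a median of -0.59. The transport genes of that span, KIF1A and KIFC3, had 0.16 and 0.03, and of 2332 protein-coding genes 30.1% were lower at 0.05, with a median of -0.11.

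Above 131 kb there was no mitotic gene. All 6 transport genes of that span (KIF21A, KIF1B, KIF13B, KIF13A, KIF5C and KIF16B) were lower at an adjusted p under 0.05, with a median of -0.77, beside a median of -0.56 for 1906 protein-coding genes. Of those 1906 genes, 65.1% were lower at that threshold. The log2 fold change of KIF1B was -0.42 as reported and -0.28 without the second SGSS05-NS library. KIF5C, of 250 kb, lay above the median of -0.71 for protein-coding genes of 200 to 400 kb, whereas KIF21A, of 150 kb, lay below the lower quartile of -0.52 for genes of 100 to 200 kb. KIF26B lay below the lower quartile of -1.59 for genes over 400 kb. With each member set against the median of protein-coding genes in its bin of span (6 bins), 13 of 13 mitotic genes lay below it, with a median difference of -0.50 on the log2 scale, and so did 9 of 17 transport genes, with a median difference of -0.08. For the 8 others the median difference was 0.02. The mitotic genes were also the shorter class, with a median span of 34.2 kb against 57.4 kb for the transport genes.

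**Figure D3:**
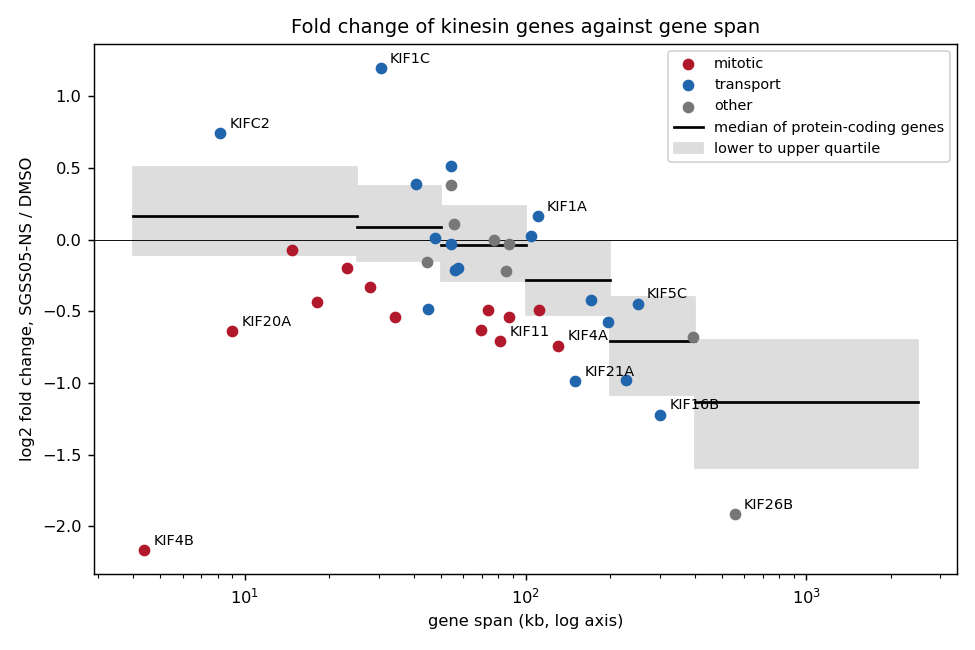
Log2 fold change of SGSS05-NS over DMSO against gene span in kb (log axis) for the 38 tested kinesins, coloured by class. Black lines are the medians and grey boxes the range from lower to upper quartile of all protein-coding genes tested in 6 bins of span; 13 of 13 mitotic and 9 of 17 transport genes lie below the line of their bin, with KIF1C far above it and KIF21A far below.

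Per kb of exon, KIF5B was the most abundant kinesin in both groups, at 88.1 CPM per kb in DMSO and 88.6 in SGSS05-NS. KIF11 came second at 46.6 in DMSO and 28.5 in SGSS05-NS, and KIF21A was at place 3 with 43.9 in DMSO and at place 6 with 22.1 CPM per kb in SGSS05-NS. KIF26B went from place 9 of the 38 at 22.7 CPM per kb to place 23 at 6.02, and KIF1C from place 30 at 2.41 to place 24 at 5.51. As a share of all gene fragments, mitotic kinesins took 0.139% and 0.131% in DMSO and 0.109% and 0.0850% in SGSS05-NS, and transport kinesins had 0.226% and 0.231% in DMSO and 0.212% and 0.182% in SGSS05-NS.

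Genes that work with the kinesins were taken from 3 lists written from general knowledge. Of 23 partners in spindle assembly and cytokinesis, 7 were lower at an adjusted p under 0.001 (30.4%, beside 8.14% of all tested genes) and 18 at 0.05 (78.3%, beside 23.7%). In 22 the fold change was negative, and the median was -0.39. ECT2, the exchange factor that starts the cleavage furrow with centralspindlin, had 4663 and 4166 fragments in DMSO and 2694 and 2393 in SGSS05-NS (log2 fold change -0.71, adjusted p = 0.000217 by the edgeR test). HMMR, a spindle pole protein, had 3116 and 2652 fragments in DMSO and 1762 and 1716 in SGSS05-NS (log2 fold change -0.64, adjusted p = 0.000254). CIT, the citron kinase that binds KIF14, had 1442 and 1542 in DMSO and 885 and 829 in SGSS05-NS (log2 fold change -0.72, adjusted p = 0.000259). These 3 calls were lost when counts were scaled by library size only, with adjusted p between 0.00104 and 0.00108. CENPE, a kinetochore kinesin whose gene symbol does not begin with KIF, had a log2 fold change of -1.06 (adjusted p = 0.000492 by the edgeR test). That call was lost with DESeq2 (0.0144) and with library size only (0.00231). SKA1 was the list's 1 gene with a positive value, 0.17.

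The cargo side of the transport motors gave counts near those of all tested genes. Of 12 tested light chains, adaptors and mitochondrial linkers 1 was higher and 0 lower at an adjusted p under 0.001, 3 were higher and 3 lower at 0.05 (25% each way, beside 22.6% and 23.7% of all tested genes), and the median was 0.17. MAPK8IP1, a scaffold between kinesin-1 and its cargo, was the higher gene, with 1659 and 1506 fragments in DMSO and 2317 and 2415 in SGSS05-NS (log2 fold change 0.67, adjusted p = 0.000119 by the edgeR test). KIFAP3, the non-motor subunit of heterotrimeric kinesin-2, had a log2 fold change of -0.46 (adjusted p = 0.0021), close to that of KIF3A, and TRAK2, which ties mitochondria to kinesin-1, had -0.40 (adjusted p = 0.0055).

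The opposite motor, cytoplasmic dynein with dynactin and its regulators, had 24 tested genes, of which none passed an adjusted p under 0.001. At 0.05, 3 were higher (12.5%) and 4 lower (16.7%), below the 22.6% and 23.7% of all tested genes, and the median was -0.01. DYNC1H1, the dynein heavy chain, had a log2 fold change of 0.45 (adjusted p = 0.0039 by the edgeR test). The intermediate chain gene DYNC1I2 had -0.40 (adjusted p = 0.0037) and PAFAH1B1, the lissencephaly gene LIS1, -0.40 (adjusted p = 0.0046). Tests of differences between the classes or lists were not made, and their counts and medians are descriptions beside those of all genes.

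**Figure D4:**
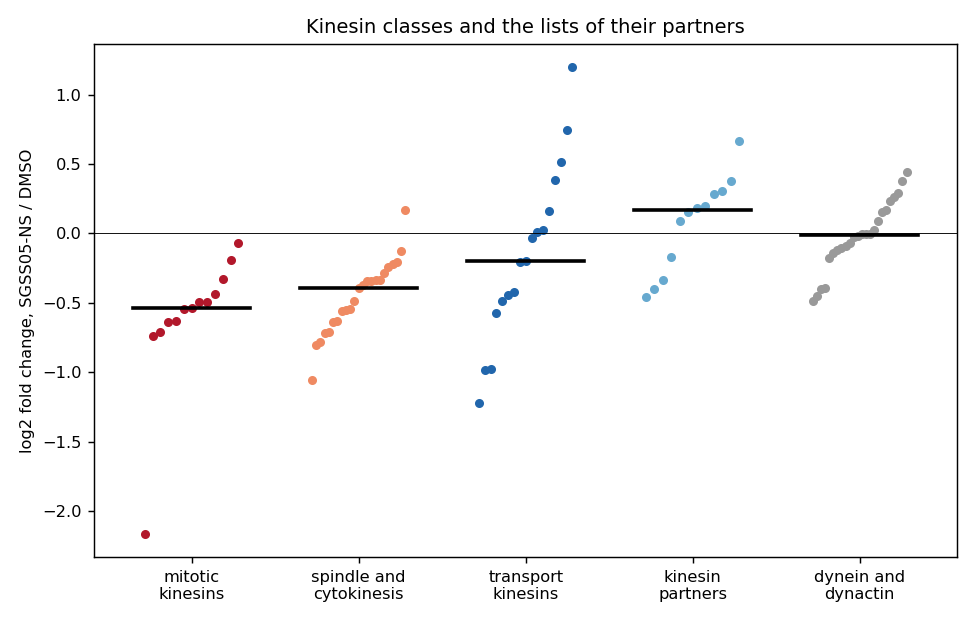
Log2 fold change of SGSS05-NS over DMSO for each tested gene (points) of the mitotic kinesins, the spindle and cytokinesis partners, the transport kinesins, the kinesin partners and dynein with dynactin; black bars are medians. The medians are -0.54, -0.39, -0.20, 0.17 and -0.01, and the point at the lower left is KIF4B.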

How the data were processed

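RNA of 4 libraries was used, 2 with DMSO and 2 with SGSS05-NS. Per the submitters' notes the authors trimmed paired reads with Trimmomatic 0.30 and aligned them to hg19 with STAR 2.4.2a; the deposited values are raw counts of fragments per gene, without strand and for each strand. The labels name a TruSeq RNA kit and the study's methods a stranded kit for total RNA depleted of ribosomal RNA; the stranded column was used, in which a gene's antisense fragments are not counted. Fragments that map to several places were not assigned to genes by the authors. Rows that name no gene were left out.

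Gene rows were matched by identifier to GENCODE 44 on GRCh37 (the authors' GENCODE 19 was not used here), and 2282 rows, with 4.52% of gene fragments, had no entry. KIF28P, a pseudogene there, was left out. The quasi-likelihood test of edgeR 4.0.16 (R 4.3.3) was run on the counts after filterByExpr and TMM scaling, with no block and with Benjamini-Hochberg adjustment over 16468 genes and the study's threshold of 0.001. SE is the size of the log2 fold change divided by the root of the F statistic. Scripts were tested on simulated counts. The study's likelihood ratio test, DESeq2 1.42.0, limma 3.58.1 (voom), other scalings and filters, a replicate block, unstranded counts and leaving out each library were tried. Libraries of a group differed by more than counting error.

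The members, classes and lists were chosen with earlier results of these data known, so no p was taken over a list. Every member was named; library values were given for KIF26B, KIF11, KIF5C and the 5 mitotic, 5 transport and 4 other members with the smallest p, and fold changes for the 3 such genes of each partner list; values were added for KIF20A, KIF14, KIF22, KIF5A, KIF5B, KIF21B, KIFC2, KIF26A, EPCAM, CENPE and SKA1 after they were seen. Promoters are RefSeq sequences of GRCh38.p14, and 8 members were not in that table.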

Additional observations from a re-analysis of the deposited data

Results flagged for a closer look

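Fragments on the strand opposite to a gene were not part of the comparisons, and 33 kinesin genes had at least 1. In 4 of them the antisense fragments, scaled by library, were more abundant after SGSS05-NS than in DMSO, with an exact binomial 95% interval of the ratio above 1 that covers counting error only. KIF22 had 8 and 9 antisense fragments in DMSO and 21 and 39 in SGSS05-NS, a ratio of 3.74 (2.15 to 6.84), and a non-coding gene shares 561 exon bases with it on the opposite strand. KIF1B had 7 and 8 in DMSO and 24 and 24 in SGSS05-NS, a ratio of 3.39 (1.87 to 6.52), and no annotated exon of the opposite strand overlaps its exons. KIF9 had 83 and 70 in DMSO and 147 and 123 in SGSS05-NS, a ratio of 1.87 (1.53 to 2.30), and exons of KIF9-AS1 and KLHL18 overlap its own on the opposite strand. KIF20A had 39 and 39 in DMSO and 56 and 65 in SGSS05-NS, a ratio of 1.64 (1.23 to 2.21), and exons of CDC23 and BRD8 overlap its own. The files count per gene, so where in a gene these fragments lie is not known. In contrast, KIF26B had 79 antisense fragments in both DMSO libraries and 40 in both SGSS05-NS libraries, a ratio of 0.537 (0.357 to 0.795), beside its lower sense level, and KIF5C had 27 and 12, a ratio of 0.471 (0.217 to 0.962). Over all genes, the opposite strand held 4.67% and 4.64% of the gene fragments of either strand in DMSO. In SGSS05-NS it held 5.05% and 5.04%. How many of all genes had such an interval was not counted, so the 4 kinesins have no background beside them. With so few fragments, and over 33 genes looked at, such ratios are values to look at again and not calls.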

How the results depend on the processing

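No kinesin call and neither the mitotic nor the transport median turned its sign under the settings tried, and the mitotic genes tested stayed negative in each (12 where at least 10 counts were asked in every library, which drops KIF4B); KIF5B, KIFC3, KIF21B, KIF24, KIF27 and KIF9, uncalled and near 0, took both signs. KIF1C and the lower calls of KIF26B, KIF16B, KIF13A, KIF21A, KIF4A and KIF11 held in every one of them; KIF13B did not. The number of kinesins called lower, 7 as reported, depended on the test: 15 by the likelihood ratio test (2 higher, 8 mitotic lower), 18 with no filter on low counts (2 higher, 10 mitotic and 7 transport lower), 17 at an adjusted p under 0.01 (2 higher, 10 mitotic lower), 19 at 0.05 (4 higher, 11 mitotic and 7 transport lower), and 4 mitotic genes by DESeq2. With the replicate number as a block, 15 were lower (9 mitotic) and 2 higher. Deviations of same-numbered libraries from their group means correlated at 0.0526 across genes. With 2 libraries per group that value cannot decide whether the numbers pair the samples. Leaving out 1 library gave 6 to 16 lower calls, 2 to 9 of them mitotic, a mitotic median of -0.65 to -0.35, a transport median of -0.22 to -0.14 and a difference of the medians of -0.43 to -0.21; the lone library is assumed to vary like the others. Counts without strand gave a transport median of -0.24, and exon length in place of span a correlation of -0.0069. The cause of these shifts was not tested. Scaling moved the median of all genes by less than 0.1. With 2 libraries per group and 4 to 24 fragments in a library, KIF6 and KIF4B are the tested members that depth limits most.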
